A study of Mus musculus with 8 samples.

Results

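The mRNAs of the antiproliferative genes Btg1, Btg2, Btg3, Tob1 and Tob2 were followed in mouse embryonic stem cells whose transcription had been blocked. All array probes that are not controls and whose accession belongs to 1 of these 5 genes were taken, which gave 6 of 55681 probes. Btg1 had 2 probes, called here the bright probe (A_55_P2098598) and the dim probe (A_55_P2181191). Btg2 (A_52_P31543), Btg3 (A_55_P1972322), Tob1 (A_51_P293339) and Tob2 (A_52_P70854) had 1 probe each. All 6 probes were well above background on all 8 arrays, so none was lost to the filter on dim probes, which kept 33013 probes in all.

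The medium of every group held LIF, which keeps the cells in self-renewal, and 250 nM of the FGF receptor inhibitor PD173074. The 4OHT group (3 arrays) received 5 µM actinomycin D, which blocks transcription, and 30 min later 250 nM 4-hydroxytamoxifen (4OHT) for 4 h. The vehicle group (2 arrays) received the same actinomycin D and then ethanol for 4 h, and the untreated group (3 arrays, 0 h) received neither. The titles of the untreated samples carry an abbreviation of actinomycin D, while their treatment label and description call them untreated, and every comparison with them rests on that label. The labels do not say what 4OHT acts on in these cells, name no line or strain and state no ages, and the series title concerns mRNA degradation regulated by Erk. The design text speaks of 3 biological replicates per condition, and 2 vehicle arrays were analysed here.

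BTG and TOB proteins share a conserved amino-terminal domain that binds the deadenylases CNOT7 and CNOT8 of the CCR4-NOT complex. They bring this complex to mRNAs, often through the poly(A) binding protein, and so speed the shortening of poly(A) tails, and their overexpression slows the cell cycle. The TOB proteins are known substrates of ERK, whose phosphorylation weakens their antiproliferative activity, and Btg2 is a p53 target and an early response gene.

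The promoters of Btg1, Btg2 and Tob1 are shown because these genes had the 3 largest falls after actinomycin D on the probes described below. Each sequence is the 250 bases before the annotated start, from RefSeq's table of assembly GRCm38.p6, 5′ to 3′ on the gene's strand. Capitals mark every match, on either strand, to TATAAA or to the cAMP response element TGACGTCA.
Btg1 (chr10:96616751-96617000, plus strand): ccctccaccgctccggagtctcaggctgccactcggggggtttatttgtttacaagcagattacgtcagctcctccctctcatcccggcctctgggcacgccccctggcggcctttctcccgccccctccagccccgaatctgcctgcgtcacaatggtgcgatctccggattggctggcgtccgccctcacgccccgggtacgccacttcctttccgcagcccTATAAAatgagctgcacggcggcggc
Btg2 (chr1:134079156-134079405, minus strand): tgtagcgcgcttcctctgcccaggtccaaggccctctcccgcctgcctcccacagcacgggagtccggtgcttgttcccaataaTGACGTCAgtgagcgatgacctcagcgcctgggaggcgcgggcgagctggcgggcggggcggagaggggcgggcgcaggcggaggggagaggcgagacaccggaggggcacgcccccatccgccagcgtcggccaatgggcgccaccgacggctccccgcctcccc
Tob1 (chr11:94211204-94211453, plus strand): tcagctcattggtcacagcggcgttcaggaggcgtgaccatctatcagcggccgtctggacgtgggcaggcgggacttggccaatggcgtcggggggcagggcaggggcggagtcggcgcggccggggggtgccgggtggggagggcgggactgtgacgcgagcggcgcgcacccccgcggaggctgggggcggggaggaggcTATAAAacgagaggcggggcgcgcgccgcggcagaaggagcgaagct
TATAAA was found in the Btg1 window 26 bases before the start and in the Tob1 window 47 bases before it, and in 12.4% of the 32851 windows in the table. TGACGTCA was found in the Btg2 window only among the 6 windows of the 5 genes (Btg3 has 2), and in 1.55% of all windows. No match to either motif was found in the Btg3 or Tob2 windows. The other motifs searched, also on both strands, were TGACG, which is part of TGACGTCA (Btg1, Btg2 and Tob1; 17.8% of all windows), CCAAT (Btg1, Btg2, Btg3 and Tob1; 33.8%) and GGGCGG (all 5 genes; 32.7%). The matches describe the letters of these windows, and binding was not measured.

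Levels are log2 processed signals minus the log2 75th percentile of the same array, so a level of 0 is that percentile. The 75th percentile itself was lower after actinomycin D, at 180 to 208 with 4OHT and 166 to 204 with vehicle, against 331 to 458 in untreated cells. Relative to Agilent's spike-in control probes its log2 value was -5.27 to -4.79 with 4OHT, -4.83 to -4.72 with vehicle and -3.56 to -3.39 untreated. A difference given on the spike-in scale therefore includes the general loss of signal, which was -0.88 for the median kept probe with vehicle against untreated. The control probes did not all shift alike. In log2 signal E1A_r60_a135 read 7.70 to 8.28 untreated and 8.62 to 8.97 with 4OHT. The brightest, E1A_r60_1, read 17.62 to 17.84 and 17.73 to 17.86. Percentages of signal left on this scale therefore depend on which control probes are averaged. All 4OHT arrays lay on slide 1 and all others on slide 2, so slide and 4OHT cannot be told apart, and on slide 2 the vehicle and untreated arrays lay in different rows. Of 10 embryonic stem cell markers, all were kept, and the sum of their signals, in units of the 75th percentile, was 1118 to 1292 with 4OHT, 1298 to 1361 with vehicle and 906.7 to 1062 untreated. A few bright genes carry that sum: with vehicle against untreated 4 of the 10 rose and 3 fell (median 0.15), with Dppa5a at 1.16 and Pou5f1 at 1.0035 but Fgf4 at -3.62, Sox2 at -3.53 and Zfp42 at -1.05. Over the brightest kept probe of each of 14932 gene symbols, 41.8% were called higher and 19% lower in that comparison (median 0.36). On the spike-in scale 0 of the 10 were called higher and 6 lower, where 65.2% of all kept probes were called lower. Of 10 feeder fibroblast markers 6 were kept (sums 4.23 to 6.07, 4.05 to 5.36 and 2.75 to 3.98), while the fibroblast genes Col3a1, Postn, Lum and Dcn were not, and all 9 primitive endoderm markers were kept (sums 86.4 to 108.8, 71.2 to 84.9 and 41.6 to 54.7). The endoderm sum rose while more of its genes were called lower than higher. With vehicle against untreated 2 rose and 5 fell (median -1.30, or -0.98 with 5 genes at their bound). With 4OHT against untreated 3 rose and 5 fell, where 6542 of the 14932 symbols were called higher and 3206 lower. Of the 9 endoderm genes, 5 were below background on every vehicle and 4OHT array. These 5 were kept through the untreated arrays alone, so that they could only fall was fixed by the filter. The part of these shifts in the results was not tested, and fewer cells of a type cannot be told apart from less RNA per cell.

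Vehicle against untreated asks which of these mRNAs were lower after 4 h with transcription blocked. These groups also differ by ethanol, time in culture and slide row, which cannot be told apart from actinomycin D. No group was kept for 4 h without actinomycin D. Btg1, Btg2, Tob1 and Tob2 all fell, and Btg3 did not pass the test. The falls on the Btg1 bright probe (-4.80 log2, 27.8-fold) and on Tob1 (-2.24, 4.74-fold) were the deepest. Btg2 followed at -1.39 (2.62-fold) and Tob2 at -1.01 (2.02-fold), with the Btg1 dim probe at -0.90 (1.87-fold). In counts, 5 of 6 probes were called lower and 0 higher at an adjusted p under 0.05, against 15.9% of all kept probes called lower and 42.4% called higher. An unadjusted p under 0.05 was found for 5 of the 6, against 20866 of the 33013 kept probes in either direction. P-values are from limma, fitted to all 33013 kept probes on the 8 arrays and Benjamini-Hochberg adjusted over all of them, and errors of differences are standard errors from that fit. On all 6 probes the vehicle and untreated arrays did not overlap, with Btg3 the one probe whose vehicle arrays were the higher ones on this scale. How many of all kept probes also lacked overlap was not counted, so this does not set the 6 probes apart. The median over the 6 probes was -1.20, against 0.41 over all kept probes.

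**Figure D1:**
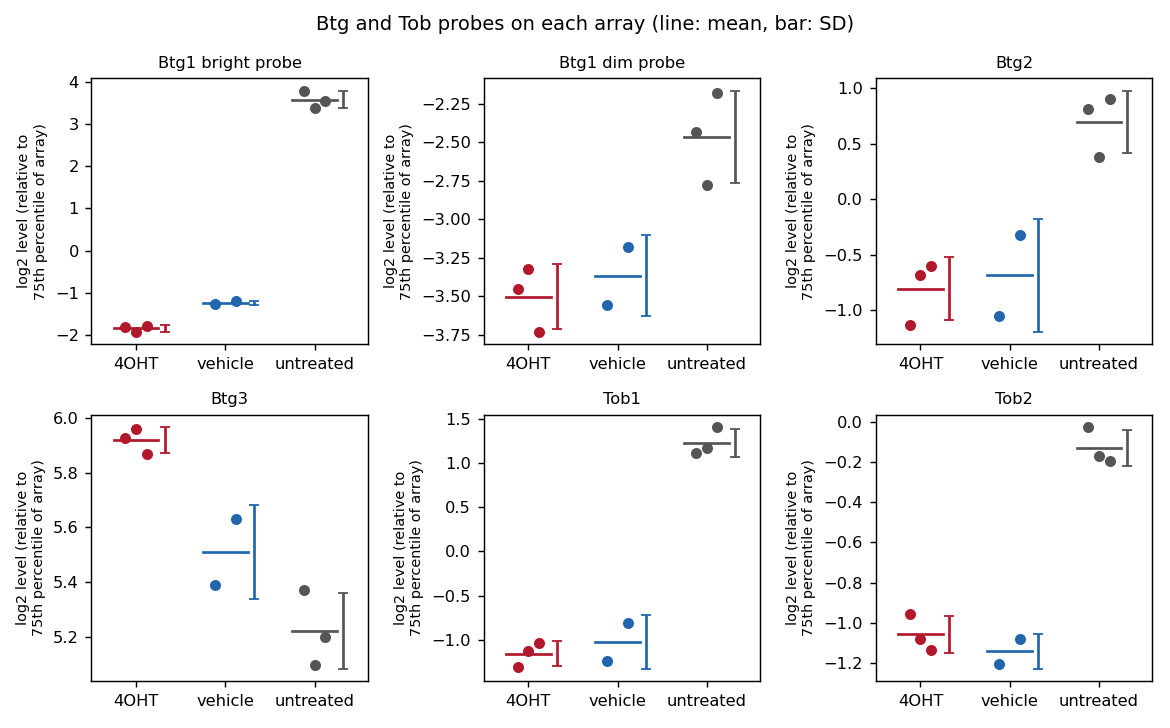
Log2 level (relative to the 75th percentile of the array) of each of the 6 probes on every array, in the 4OHT, vehicle and untreated groups. Points are arrays, lines are group means and bars are standard deviations (n = 3, 2 and 3). Both groups that received actinomycin D lie below the untreated arrays on every probe except Btg3, whose order is the opposite on this scale.

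Btg1 encodes an adaptor of the CCR4-NOT deadenylase that restrains proliferation and is known for its role in lymphocyte quiescence. Its bright probe read -1.81, -1.92 and -1.78 with 4OHT, -1.26 and -1.20 with vehicle, and 3.79, 3.38 and 3.54 untreated. The groups did not overlap, and the untreated arrays stood far above the rest. The vehicle mean was -1.23 ± 0.04 (SD, n = 2) and the untreated mean 3.57 ± 0.20 (SD, n = 3), a difference of -4.80 ± 0.13 (limma adjusted p = 4.4e-06). Of 33013 kept probes this was the 36th largest fall. On the spike-in scale the difference was -6.08 ± 0.23, which leaves 1.48% of the untreated signal, on a scale where 65.2% of all kept probes were called lower.

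The Btg1 dim probe is annotated to the same transcript (NM_007569) and gave another size. It read -3.45, -3.32 and -3.73 with 4OHT, -3.55 and -3.18 with vehicle, and -2.43, -2.78 and -2.18 untreated. The untreated arrays were again the highest, without overlap, but the gap was smaller. Its difference between vehicle and untreated was -0.90 ± 0.22 (limma adjusted p = 0.010), a call lost without vehicle replicate 1 (-0.72, adjusted p = 0.069), with quantile normalization (adjusted p = 0.053) and with median scaling (adjusted p = 0.0501). With normexp background correction its sign turned (0.14, adjusted p = 0.30). Its processed signal was 14.1 and 22.4 with vehicle, against 61.5, 66.7 and 89.0 in untreated cells. The lowest signal of any probe well above background was 3.55 and 4.99 with vehicle, against 6.09, 6.34 and 11.018 in untreated cells. The dim probe was marked well above background on all 8 arrays, so it lies above that limit by definition. That position does not show how far background affected its readings, which was not tested.

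The gap between both Btg1 probes within an array, which no scaling of a whole array can change, tests whether they changed by different amounts. The log2 signal of the dim minus the bright probe was -1.64, -1.40 and -1.96 with 4OHT, -2.29 and -1.98 with vehicle, and -6.22, -6.16 and -5.72 in untreated cells. The gap was narrower on every array that followed actinomycin D than on any untreated array. In a limma fit of 4520 such probe pairs of one gene, the gap changed by 3.89 ± 0.22 between vehicle and untreated (adjusted p = 0.00016), the 7th largest change in absolute size. In that comparison 16.4% of all pairs were called unequal. Which of the readings follows the abundance of Btg1 mRNA was not tested, and the probe sequences were not used here.

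**Figure D2:**
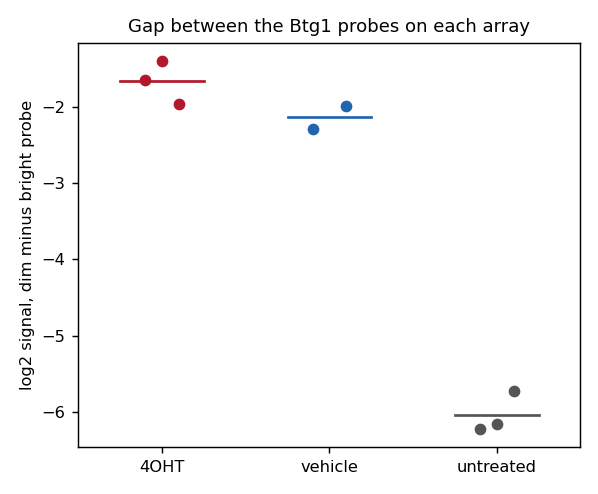
Difference in log2 signal between the dim and the bright Btg1 probe on each array, in the 4OHT, vehicle and untreated groups. Points are arrays and lines are group means. The gap is between -2.29 and -1.40 on the arrays after actinomycin D and between -6.22 and -5.72 on the untreated arrays.

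Btg2, first described as an early response gene and as a p53 target that arrests cells in G1, read -1.13, -0.69 and -0.60 with 4OHT. It read -1.05 and -0.33 with vehicle, and 0.81, 0.38 and 0.91 untreated. Both groups after actinomycin D were below the untreated arrays, but the vehicle arrays lay far from each other, the widest spread of the 6 probes within that group (SD 0.51, n = 2). The difference between vehicle and untreated was -1.39 ± 0.28 (limma adjusted p = 0.0045), and it ran from -1.75 without vehicle replicate 2 to -1.03 without vehicle replicate 1, called either way. On the spike-in scale 15.7% of the untreated signal was left.

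Btg3, also called ANA, is known to restrain cell cycle entry and in human cells to bind the transcription factor E2F1. Its probe read 5.93, 5.96 and 5.87 with 4OHT, 5.39 and 5.63 with vehicle, and 5.37, 5.10 and 5.20 untreated. On this scale the order was 4OHT, vehicle, untreated, without overlap between groups. The difference between vehicle and untreated was 0.29 ± 0.12 (limma adjusted p = 0.082), below the median of 0.41 over all kept probes. It was called without untreated replicate 1 (0.36, adjusted p = 0.048). Its direction depended on the scale, being -0.34 with quantile normalization, -0.81 without scaling and -0.99 on the spike-in scale, and all 3 of these were called lower. On the spike-in scale 50.2% of the untreated signal was left, the largest remainder among the 6 probes.

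The TOB proteins are larger relatives whose carboxy-terminal part carries motifs that bind the poly(A) binding protein. Tob1, which was found as a partner of the receptor ErbB2, read -1.31, -1.12 and -1.03 with 4OHT, -1.24 and -0.80 with vehicle, and 1.11, 1.17 and 1.40 untreated. All 5 arrays after actinomycin D were below all 3 untreated arrays. The difference between vehicle and untreated was -2.24 ± 0.17 (limma adjusted p = 0.00014), and 8.67% of the untreated signal was left on the spike-in scale.

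Tob2, which shares the deadenylase-binding domain of Tob1, read -0.95, -1.08 and -1.14 with 4OHT, -1.20 and -1.08 with vehicle, and -0.03, -0.17 and -0.20 untreated. The untreated arrays were the highest, and within each group the arrays lay close together, with standard deviations of 0.09 in each. The difference between vehicle and untreated was -1.01 ± 0.11 (limma adjusted p = 0.00036), and 20.4% of the untreated signal was left on the spike-in scale.

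The gap between relatives was also set out array by array. The log2 signal of Tob1 minus Tob2 within an array was -0.35 to 0.28 on the 5 arrays after actinomycin D and 1.13 to 1.60 on the 3 untreated arrays, a change of -1.37. For the Btg1 bright probe minus Btg2 the values were -1.24 to -0.21 and 2.63 to 3.00, a change of -3.70. For both pairs the 2 sets of arrays did not overlap. These 2 pairs were chosen with their values known, so the gaps are a description with no test. The Btg1 values are those of its bright probe, and the dim probe changed by less than Btg2 (-0.90 against -1.39).

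**Figure D3:**
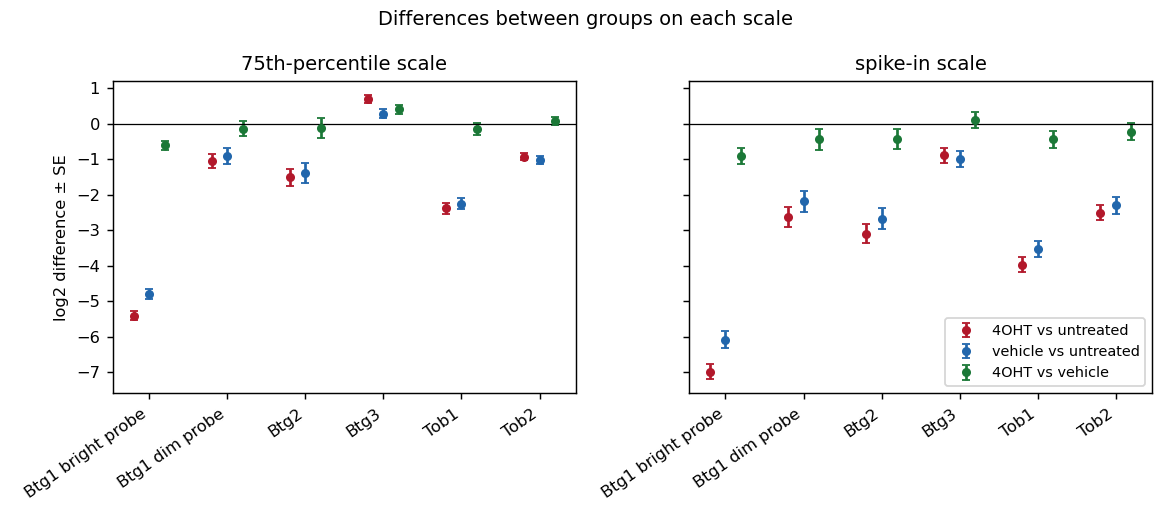
Log2 difference ± standard error for each probe in the 3 comparisons, on the 75th-percentile scale (left) and on the spike-in scale (right). The Btg1 bright probe is lowest on both scales, and the Btg3 difference with vehicle against untreated is 0.29 on the left and -0.99 on the right.

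The comparison of 4OHT with vehicle, both under actinomycin D, asks whether 4OHT altered these mRNAs while transcription was blocked. None of the 6 probes passed the test (limma, 0 called higher and 0 lower), against 0.912% of all kept probes called higher, 2.52% lower and 3.43% in either direction. An unadjusted limma p under 0.05 was found for 2 of the 6, against 6251 of the 33013 kept probes. These 2 were the Btg1 bright probe and Btg3, which were also the probes whose arrays did not overlap between the groups. Lack of overlap was not counted over all kept probes. The Btg1 bright probe averaged -1.83 ± 0.08 (SD, n = 3) with 4OHT and -1.23 ± 0.04 (SD, n = 2) with vehicle. The difference was -0.61 ± 0.13 (limma adjusted p = 0.064), and it was called with a filter on all 8 arrays (adjusted p = 0.044) and with a trended variance (adjusted p = 0.033). With normexp background correction it was -0.28 (adjusted p = 0.27), and over the remaining alternatives its adjusted p reached 0.70. Btg3 averaged 5.92 ± 0.05 (SD, n = 3) with 4OHT and 5.51 ± 0.17 (SD, n = 2) with vehicle, a difference of 0.41 ± 0.12 (limma adjusted p = 0.13) that was 0.11 on the spike-in scale (adjusted p = 0.76).

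The other probes overlapped between 4OHT and vehicle. Btg2 stood at -0.12 ± 0.28 (95% interval -0.77 to 0.54) and Tob1 at -0.14 ± 0.17 (-0.53 to 0.26). Tob2 stood at 0.08 ± 0.11 (-0.17 to 0.34) and the Btg1 dim probe at -0.13 ± 0.22 (-0.65 to 0.38). These intervals leave room for changes of up to 0.77 log2 units. The change of the gap between both Btg1 probes was 0.47 ± 0.22 (limma adjusted p = 0.35, with 0.487% of pairs called).

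**Figure D4:**
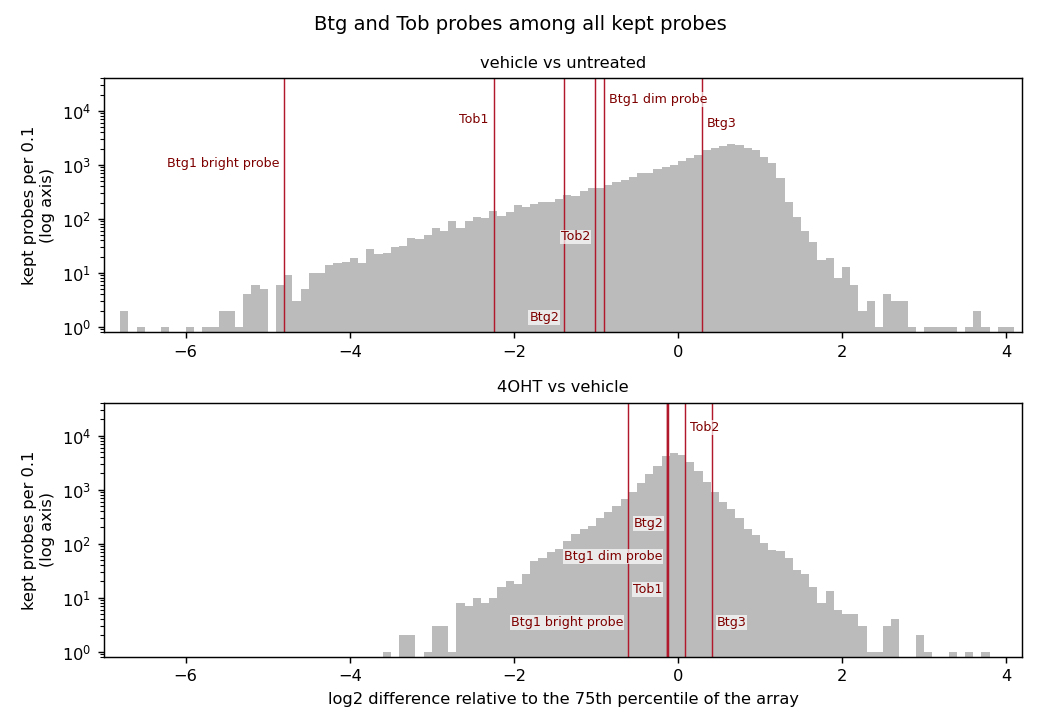
Number of kept probes per 0.1 log2 units of difference (log axis) in 2 comparisons, vehicle against untreated (upper panel) and 4OHT against vehicle (lower panel), with red lines at the 6 Btg and Tob probes. In the upper panel the Btg1 bright probe lies at -4.80, in the far left tail, while in the lower panel all 6 lie between -0.61 and 0.41.

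4OHT against untreated shares its untreated arrays with the first comparison and its 4OHT arrays with the second. The Btg1 bright probe fell by 5.40 ± 0.12 (limma adjusted p = 1.3e-06), the 19th largest fall of 33013, and Tob1 fell by 2.38 ± 0.15 (adjusted p = 3.9e-05). Btg2 fell by 1.51 ± 0.25, the Btg1 dim probe by 1.04 ± 0.19 and Tob2 by 0.93 ± 0.10. The sign of the Btg1 dim probe turned with normexp (0.083, limma adjusted p = 0.48). Btg3 rose by 0.70 ± 0.11 (limma adjusted p = 0.0013; -0.89 on the spike-in scale and -0.36 without scaling). In all, 5 of 6 probes were called lower and 1 higher, against 18.6% and 42.3% of all kept probes. On the spike-in scale 0.787% of the untreated signal was left on the Btg1 bright probe, 6.40% for Tob1, 11.7% for Btg2, 16.2% on the Btg1 dim probe, 17.5% for Tob2 and 54.1% for Btg3, where 93.2% of all kept probes were called lower. The gap between both Btg1 probes changed by 4.37 ± 0.19 (limma adjusted p = 3.6e-05), with 25.7% of pairs called.

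The genes around the family were described on the brightest kept probe of each, among 14932 symbols of which 19% were called lower and 41.8% higher with vehicle against untreated. Of the deadenylases and poly(A) binding partners, all 15 listed genes were kept, and 9 rose and 3 fell (median 0.48, against 0.36 over all symbols). On the spike-in scale 0 of the 15 were called higher and 10 lower (median -0.81). On that scale 65.2% of all kept probes were called lower (median -0.88). For the brightest probe of each symbol that share was not counted, here or for the lists below, so the sets compared are unlike. Cnot1, the scaffold of the CCR4-NOT complex, stood at 0.89 ± 0.12 (-0.39 on the spike-in scale) and Pabpc1, the main cytoplasmic poly(A) binding protein, at 0.84 ± 0.16 (-0.44). Cnot2, which helps to hold that complex together, fell by 1.13 ± 0.13 and Cnot4, a ubiquitin ligase of the complex, fell by 0.62 ± 0.10. Of the catalytic subunits that BTG and TOB proteins bind, chosen after their values were seen, Cnot8 fell (-0.51, limma adjusted p = 0.0037) and Cnot7 stood at 0.21 (adjusted p = 0.14). Both were called lower on the spike-in scale (Cnot8 -1.79, Cnot7 -1.07), and the difference between them was not tested.

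Of 11 other described partners 8 were kept, and 4 rose and 1 fell with vehicle against untreated (median 0.44). Relative to the spike-in probes 0 of the 8 were called higher and 6 lower (median -0.84), against 65.2% of all kept probes called lower (median -0.88). Prmt1, an arginine methyltransferase that binds BTG proteins, stood at 1.14 ± 0.13 (-0.14 on the spike-in scale) and Mapk3, which encodes ERK1, at 0.93 ± 0.15 (-0.35). Smad1, a transducer of BMP signals, fell by 1.69 ± 0.21. With 4OHT against vehicle limma called 0 of these 8, where 1.29% of all symbols were called higher and 3.09% lower. At an unadjusted limma p under 0.05, 1 was higher and 2 were lower, against 3007 of 14932 symbols in either direction.

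Of 19 p53 targets and growth arrest genes, the group to which Btg2 belongs, 18 were kept, and 9 fell and 4 rose with vehicle against untreated (median -0.62). With spike-in scaling 0 of the 18 were called higher and 15 lower (median -1.90), against 65.2% of all kept probes called lower (median -0.88). Gadd45g, a growth arrest and stress gene, fell by 3.41 ± 0.20 and Cdkn1a, the p21 inhibitor of cyclin-dependent kinases, fell by 2.83 ± 0.11. Bax, a pro-apoptotic factor, stood at 1.0002 ± 0.12 and Zmat3, a zinc finger p53 target, at 0.90 ± 0.10, which were -0.28 and -0.38 on the spike-in scale. Of 23 immediate early genes, the other group to which Btg2 belongs, 22 were kept, and 16 fell and 1 rose. The median of the 22 was -2.88, or -2.71 with genes below background on all vehicle arrays set to their bound. Of the 22, 5 were below background on every vehicle and 4OHT array. These 5 were kept through the untreated arrays alone, so that they could only fall was fixed by the filter. On the spike-in scale all 22, these 5 included, were called lower (median -4.16), where 65.2% of all kept probes were. Fos fell at least 16.6-fold and Myc fell by 4.71 ± 0.13, while Srf stood at 0.54 ± 0.12 (-0.74 on the spike-in scale). Beside them, Btg2 fell by 1.39 in the same comparison.

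**Figure D5:**
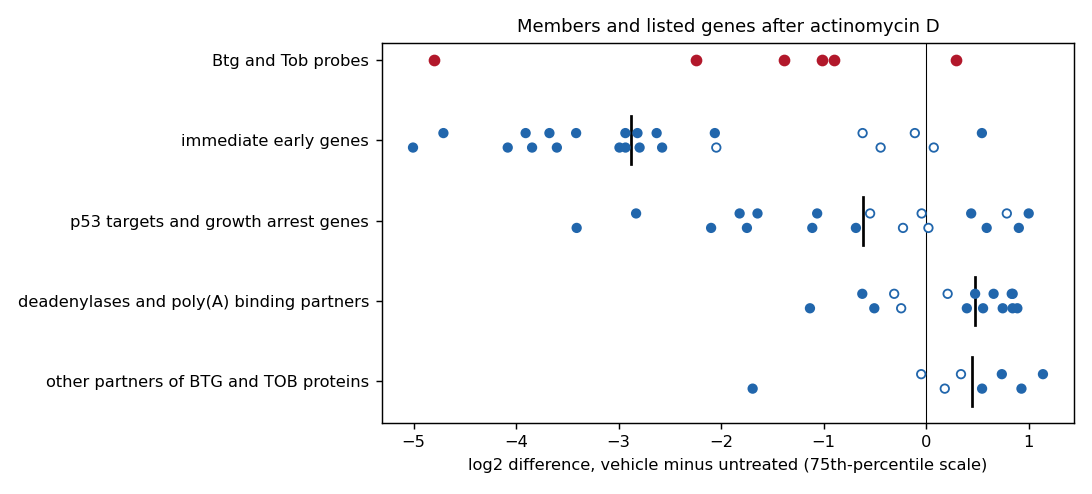
Log2 difference of vehicle minus untreated on the 75th-percentile scale for the 6 Btg and Tob probes (red) and for the genes of 4 lists (blue). Filled blue points have an adjusted p under 0.05, open ones do not, and black lines are list medians. Immediate early genes lie mostly to the left (median -2.88), and deadenylases and poly(A) binding partners mostly right of 0 (median 0.48). Of the 22 immediate early genes, 5 were kept through the untreated arrays alone.

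With 4OHT against vehicle, 1.29% of the symbols were called higher and 3.09% lower. An unadjusted limma p under 0.05 was found for 3007 of the 14932 symbols, in either direction. Of the 18 p53 targets and growth arrest genes 4 rose and 2 fell. On the spike-in scale 1 was called higher (Plk3) and 2 lower, against 42 and 1276 of the 33013 kept probes. Plk3, a stress-response kinase, was higher by 2.09 ± 0.17 (1.79 on the spike-in scale) and Mdm2, the ubiquitin ligase of p53, by 0.82 ± 0.13 (0.52, no longer called there, with an adjusted p of 0.16). Bbc3, a pro-apoptotic BH3 protein, fell by 1.54 ± 0.19 and Sesn2, a stress-induced p53 target, fell by 0.71 ± 0.10. Of the 22 immediate early genes 2 were called higher, of which Ier3 was higher by 1.32 ± 0.21 and Fos was below background in both groups, so that no fold is given. With spike-in scaling 0 of the 22 were called higher, with Ier3 at 1.02 (limma adjusted p = 0.068). Among them 0 were called lower (limma; 1 at an unadjusted p under 0.05). Of the 15 deadenylases and poly(A) binding partners, limma called 0 higher and 1 lower. At an unadjusted limma p under 0.05, 2 were higher and 2 lower. The 1 called was Cnot2, lower by 0.67 ± 0.13 (limma adjusted p = 0.046, against 0.0501 relative to the spike-in probes).

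The genes whose pattern over the 8 arrays was most like each member's were found by the root mean square difference of log2 levels, each probe centred on its own untreated mean. For Tob2 they were Clk2, a kinase of splicing factors (0.051), and Uvrag, an autophagy gene (0.069). For Btg3 they were Slc50a1, a sugar transporter (0.054), and Klc2, a kinesin light chain (0.055). For Tob1 they were Enpp4 (0.068) and Dcbld1 (0.11), and for Btg2 Lonrf1 (0.080) and Zcchc2 (0.095). The Btg1 bright probe had less close matches, H1f5, a linker histone (0.21), and Lcmt2 (0.22). With vehicle against untreated H1f5 stood at -5.10 and Lcmt2 at -4.66, on either side of the -4.80 of Btg1. These distances describe 8 arrays in 3 groups and carry no test.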

How the data were processed

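Per the file headers, the authors' scanner files come from Agilent Feature Extraction 11.0.1.1 and give 1 colour. The deposited processed signal is a linear intensity from which that software had already subtracted background, per the file headers. Per the labels, 100 ng of total RNA from a column extraction with DNase was labelled with a low-input kit, and the dye is Cy5, while the files hold the green channel. The deposited value table equals the processed signal within a relative difference of 0.005. Of the 62976 spots, 3671 control spots and outlier-marked spots were left out, and spots of a probe were averaged on the log2 scale. From the 55681 probes, 466 lacked a value on some array. A probe stayed in if some group had it well above background on all its arrays. Accessions were matched without versions to RefSeq's GRCm38.p6 table, for names only, giving 27656 probes a symbol. The array design names mm9.

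Differences were fitted with limma 3.58.1 in R 4.3.3, 3 groups in 1 fit (5 residual degrees of freedom), and the script was tested on simulated data. P-values measure the spread between these arrays, whose number limits the precision. Within groups, arrays correlated at 0.987 to 0.994 across probes, which are not independent replicates. No spot was saturated (0 on 8 arrays). Spike-in scaling subtracts the mean log2 signal of 8 of 10 Agilent E1A control probes, and the labels do not describe their addition. "At least N-fold" divides the mean of the brighter group by the dim group's lowest signal well above background, or the probe's own if higher. Alternatives covered background correction, scaling, the value table, filters, 1 probe per gene, the groups fitted, trended eBayes, a replicate block and leaving out each array. In each list, the genes named are up to 2 rising and 2 falling called genes with the largest difference. Members and lists were chosen with earlier results of these data known.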

Additional observations from a re-analysis of the deposited data

How the results depend on the processing

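With vehicle against untreated, 4 to 6 of the 6 probes were called lower under all 20 alternatives, and with 4OHT against untreated also 4 to 6. The higher call of Btg3 with 4OHT against untreated was lost (0 called) with quantile normalization, without scaling and on the spike-in scale, and the trended fit added 1 higher call with vehicle against untreated (Btg3). Leaving out 1 array gave 4 to 5 lower and 0 to 1 higher calls with vehicle against untreated, 5 and 1 with 4OHT against untreated, and 0 of either kind with 4OHT against vehicle. In that last comparison the filter on all 8 arrays and the trended fit each called 1 probe lower, the Btg1 bright probe. With 1 probe per gene the Btg1 dim probe dropped out, so the 4 lower calls of that fit were among 5 probes.

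Signs turned for the Btg1 dim probe with normexp (0.14 with vehicle and 0.083 with 4OHT against untreated). Btg3 turned with vehicle against untreated under quantile (-0.34), no (-0.81) and spike-in scaling (-0.99), and with 4OHT against untreated under no (-0.36) and spike-in scaling (-0.89). With 4OHT against vehicle, where none of these was called, Tob2 was -0.22 on the spike-in scale and the Btg1 dim probe 9.6e-05 with quantile normalization. Leaving out either vehicle array gave -0.35 and 0.081 for Tob1, -0.48 and 0.24 for Btg2 and -0.32 and 0.052 for the Btg1 dim probe, the positive values without vehicle replicate 2, and without 4OHT replicate 1 Btg2 was 0.045. The cause was not tested. The unequal change of the Btg1 probes was called in both comparisons with untreated under all 13 alternatives run (3.74 to 4.37 and 4.23 to 4.70), and 3.74 to 4.05 and 4.23 to 4.52 with 1 array left out.

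Deviations of same-numbered arrays correlated at -0.21 to 0.38 over 7 pairs. Both pairs of a vehicle and a 4OHT array were positive (0.38 and 0.23), while 4 of the 5 pairs with an untreated array were negative, so the numbers were not taken to pair the samples. A fit with the replicate number as a block called the same counts of the 6 probes as the fit without it, with -4.79 for the Btg1 bright probe and 0.27 for Btg3 with vehicle against untreated. Over all kept probes that block left 8 higher and 14 lower calls with 4OHT against vehicle, in place of 301 and 831, and a fit of only these 2 groups left 16 and 39. Of calls with vehicle against untreated, 72.8% were higher, against 85.1% with normexp, 61% with quantile normalization, 0.243% without scaling and 0.153% on the spike-in scale. In that comparison 14002 probes were called higher and 5240 lower, against 22515 and 3933 with normexp, 8924 and 5695 with quantile normalization, 8782 and 4292 with median scaling, 37 and 15208 without scaling and 33 and 21514 on the spike-in scale. With 4OHT against untreated the counts were 13949 and 6150, against 23265 and 4204 with normexp, 100 and 17960 without scaling and 30 and 30784 on the spike-in scale. With 4OHT against vehicle they were 30 and 94 without a filter, 76 and 143 with median scaling, 19 and 80 without scaling, 42 and 1276 on the spike-in scale and 456 and 1044 with the trended fit. With 1 array left out they were 56 to 213 and 191 to 605. A 4OHT effect within a slide could not be fitted.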
